A study of Mus musculus with 6 samples.

Results

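The genes described here are 40 markers of the dividing cell, 14 of S phase and 26 of G2 and mitosis, chosen by symbol (GENCODE vM21) out of 27378 gene IDs in the deposited count table. They were followed in 6 single-cell RNA-seq libraries (10x Genomics 3′ v3 chemistry) of CD45+ immune cells that had been sorted by FACS from mouse brain. Of these libraries 2 came from healthy wild-type brain, 2 from control gliomas in which Trp53 was knocked out and Rbpj was wild type, and 2 from gliomas in which both Trp53 and Rbpj were knocked out, called Rbpj-/- here. Both tumour groups thus share the Trp53 deletion, and the healthy group carries neither deletion. Gliomas were found at an early stage by GFP from a Cre reporter and cut out under the microscope. Which Cre driver was used, the ages, and whether immune cells carry the deletions are not stated in the labels. According to the design text the material was pooled from 9 brains for the healthy, 15 tumours for the control and 9 for the Rbpj-/- group, while the protocol speaks of 1 well for each mouse. Where nothing says which animals entered which library, the p-values below measure the spread between libraries, which may be technical in part.

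A cell copies its DNA in S phase and divides it in mitosis after the gap called G2. S phase genes encode the replicative helicase (the MCM proteins), the sliding clamp of the DNA polymerases (Pcna) and the enzymes that make deoxynucleotides, and many are driven by E2F transcription factors. G2/M genes encode cyclins and kinases that start mitosis, the kinetochore and spindle machinery, and the ligase parts that end it. Many are held back in resting cells through CHR promoter elements, and many of their promoters also carry CCAAT boxes. Microglia, the resident macrophages of the brain, divide slowly in the healthy adult, whereas activated T cells divide fast.

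RefSeq promoter windows (GRCm38.p6, the 250 bases before the start site) were found for 35 of the 40 members, and none was found for Mcm4, Gins2, Ccna2, Aurkb and Tpx2. They were searched on both strands for the CHR word (TTTGAA), the CCAAT box (CCAAT) and E2F words (TTTCCCGC, TTTGGCGC, TTTCGCGC or TTTGCCGC). E2F words stood before 6 of 12 S phase genes (50%) and 1 of 23 G2/M genes (4.35%), against 2.16% of all 27025 genes with a window. CCAAT boxes stood before 9 of 12 S phase genes (75%) and 19 of 23 G2/M genes (82.6%), against 37.5% of all genes. The CHR word stood before 7 of 23 G2/M genes (30.4%) and 1 of 12 S phase genes (8.33%), against 18.3% of all genes. The 6 windows below are shown because they carry these words in front of members whose values recur in the results: Mcm5, Mcm6 and Hells of S phase, and Mki67, Top2a and Cdk1 of G2/M. They are written 5′ to 3′ towards the start site, with every match, on either strand, in capitals.
Mcm5, chr8:75109259-75109508, plus strand: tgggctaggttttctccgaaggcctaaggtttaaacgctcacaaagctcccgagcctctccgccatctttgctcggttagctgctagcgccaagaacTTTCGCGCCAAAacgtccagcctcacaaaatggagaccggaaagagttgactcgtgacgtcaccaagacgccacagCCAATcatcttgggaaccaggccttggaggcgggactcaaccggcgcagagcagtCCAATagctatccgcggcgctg
Mcm6, chr1:128359706-128359955, minus strand: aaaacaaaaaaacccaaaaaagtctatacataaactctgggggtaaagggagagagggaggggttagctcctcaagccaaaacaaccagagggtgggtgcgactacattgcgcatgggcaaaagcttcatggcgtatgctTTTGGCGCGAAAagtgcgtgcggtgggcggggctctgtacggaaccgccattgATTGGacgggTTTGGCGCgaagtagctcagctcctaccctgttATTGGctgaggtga
Hells, chr19:38930740-38930989, plus strand: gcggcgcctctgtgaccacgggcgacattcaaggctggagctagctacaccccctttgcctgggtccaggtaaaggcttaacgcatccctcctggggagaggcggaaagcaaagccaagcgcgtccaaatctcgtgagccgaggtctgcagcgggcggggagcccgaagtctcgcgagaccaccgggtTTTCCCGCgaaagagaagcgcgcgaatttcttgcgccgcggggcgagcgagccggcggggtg
Mki67, chr7:135716380-135716629, minus strand: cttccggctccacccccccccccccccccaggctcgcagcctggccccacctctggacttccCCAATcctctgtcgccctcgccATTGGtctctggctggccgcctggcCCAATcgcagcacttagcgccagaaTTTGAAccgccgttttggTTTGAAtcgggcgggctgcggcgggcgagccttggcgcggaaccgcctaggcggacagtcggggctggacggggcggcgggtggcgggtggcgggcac
Top2a, chr11:99024190-99024439, minus strand: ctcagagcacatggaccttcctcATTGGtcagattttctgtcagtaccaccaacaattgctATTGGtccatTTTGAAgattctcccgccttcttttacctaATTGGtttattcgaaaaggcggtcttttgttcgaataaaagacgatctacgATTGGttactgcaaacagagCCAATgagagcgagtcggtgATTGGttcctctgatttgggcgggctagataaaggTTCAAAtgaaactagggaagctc
Cdk1, chr10:69352913-69353162, minus strand: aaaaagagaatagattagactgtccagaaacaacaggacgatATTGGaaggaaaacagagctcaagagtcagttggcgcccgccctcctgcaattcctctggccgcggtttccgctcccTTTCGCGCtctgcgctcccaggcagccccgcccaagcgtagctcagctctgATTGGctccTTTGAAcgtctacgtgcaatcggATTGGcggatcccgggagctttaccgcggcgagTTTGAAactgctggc
In the Mcm5 and Mcm6 windows a pair of E2F words on opposite strands overlap, which gives 1 longer run of capitals in each. Cdk1 is the G2/M member with an E2F word, and it carries CHR words and CCAAT boxes as well. A match describes the letters and does not show that a factor binds there.

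The 6 libraries held 17362 barcodes, with total counts from 17430763 to 55229031 per library. After filters 14217 cells remained, from 497 to 6321 per library, with median counts of 5298 to 9914 per cell. The largest filter, set after seeing the data, took out 2872 mixed barcodes, which carry markers of more than 1 lineage. They made up 6.94% to 34.3% of the barcodes of a library and held 34.1% to 67.3% of its G2/M UMIs, at median counts of 10170 to 32060 per barcode. Results below are without them unless said otherwise. The cells were clustered without cell cycle genes, so that the members did not shape the classes, and a cluster was named only from fixed markers, with the ending "-like". Microglia-like cells numbered 4661 and 1656 in the healthy, 225 and 171 in the control and 1037 and 585 in the Rbpj-/- libraries. Monocyte/macrophage-like cells numbered 904 and 283, 196 and 59, and 499 and 804 in the same order, and T-like cells 6 and 11, 188 and 102, and 54 and 87. Of the 30 clusters 7 stayed unnamed. Ptprc, which encodes CD45, was read in all 6 libraries (235 to 588 CPM over all cells). Rbpj stood at 33.0 and 59.2 CPM in the healthy, 88.6 and 93.0 CPM in the control and 61.0 and 45.2 CPM in the Rbpj-/- libraries, and Trp53 between 78.4 and 96.3 CPM in all 6. These 3′ tags need not lie in the deleted parts, and the deletions need not be in immune cells, so they do not check the labels. Scaling by library totals alone, in place of edgeR's TMM factors, moved the median log2 difference of all genes from -0.03 to -0.39 and to -0.32 for monocyte/macrophage-like cells of control and Rbpj-/- tumours against healthy brain, and the share of called genes that were higher from 66.2% to 30.4% and from 65.8% to 36.0%. That share moved from 77.3% to 57.4% for all cells and from 69.3% to 48.3% for microglia-like cells of Rbpj-/- tumours, and from 43.8% to 56.9% for T-like against monocyte/macrophage-like cells. It moved from 56.0% to 43.1% for monocyte/macrophage-like against microglia-like cells, and from 54.8% to 24.5% for the difference of the control change between these classes. A total of 119 barcode sequences occurred in more than 1 library. Of the 413 barcodes that carry them, 256 were removed as likely copies.

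Over all cells of a library, the members were far higher in both tumour groups than in healthy brain. Levels are CPM, a gene's count as a share of all counts summed over the cells, scaled to the same total in each library. Differences are given on the log2 scale ± standard error. This error was taken from edgeR's quasi-likelihood test, as the absolute difference divided by the square root of its F statistic. A gene was called when its adjusted p from edgeR's quasi-likelihood test was under 0.05 over all genes tested. In such sums, more dividing cells and more of these RNAs per cell cannot be told apart. In the control tumours 38 of the 39 tested members rose and 0 fell, where 12.4% of all 13934 genes rose and 19.1% changed, with a median log2 difference of 3.41 over the members against -0.03 over all genes. In the Rbpj-/- tumours 32 of 39 rose and 0 fell, where 6.87% of all genes rose, with a median of 2.96. The counts were 38 and 33 with mixed barcodes kept, a run for which no share over all genes is given. Both comparisons use the same healthy libraries. All 40 members were higher in both control than in both healthy libraries (29.9% of 13633 genes over 1 CPM were), and all but Gins2 in both Rbpj-/- libraries (22.6% of 13144 genes). Gins2, a part of the replicative helicase, had too few counts to be tested (0.16 to 0.51 CPM). Between Rbpj-/- and control tumours 0 of 39 members were called by edgeR (19 of 13934 genes, 0.136%, were), 2 had an unadjusted p under 0.05 and DESeq2 called 1, as lower in Rbpj-/- tumours. Their median difference was -0.44 and 2 of 39 were higher in Rbpj-/- tumours. Both Rbpj-/- libraries lay below both control libraries for 20 of 40 members (28.5% of 13375 genes). For the run that follows no share over all genes is given. Without Rbpj-/- library 2, 0 were called and 30 had an unadjusted p under 0.05.

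The summed G2/M members stood at 119.5 and 182 CPM in the healthy, 1426 and 1212 CPM in the control and 512 and 1264 CPM in the Rbpj-/- libraries. The summed S phase members stood at 216 and 255 CPM in the healthy, 762 and 639.8 CPM in the control and 400.1 and 583 CPM in the Rbpj-/- libraries. For both phases each tumour library lay above both healthy ones, and Rbpj-/- library 1 was the lowest of the 4 tumour libraries. Mki67, which encodes the proliferation antigen Ki-67, stood at 8.65 and 19.3 CPM in the healthy, 154 and 121 CPM in the control and 74.3 and 156 CPM in the Rbpj-/- libraries, a log2 difference of 3.41 ± 0.53 (adjusted p = 0.00904) in control and 3.28 ± 0.52 (adjusted p = 0.0165) in Rbpj-/- tumours by edgeR. Top2a, the topoisomerase that untangles chromosomes, stood at 6.81 and 20.1 CPM in the healthy, 206 and 182 CPM in the control and 78.2 and 149 CPM in the Rbpj-/- libraries. Cdk1, the kinase that starts mitosis, stood at 12.2 and 13.3 CPM in the healthy, 60.7 and 65.7 CPM in the control and 30.8 and 66.2 CPM in the Rbpj-/- libraries. Its partner cyclin Ccnb1 stood at 1.6 and 2.42 CPM in the healthy, 35.9 and 25.1 CPM in the control and 8.4 and 31.4 CPM in the Rbpj-/- libraries, and Birc5, the survivin of the chromosomal passenger complex, at 4.56 and 7.85 CPM in the healthy, 97.2 and 94.2 CPM in the control and 31.9 and 101 CPM in the Rbpj-/- libraries. In each of these 5 genes all tumour libraries lay above both healthy libraries and all were called in both comparisons.

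Among S phase members, Rrm2, the regulated subunit of ribonucleotide reductase, moved most and stood at 2.28 and 3.86 CPM in the healthy, 43.5 and 51.2 CPM in the control and 16.3 and 35.2 CPM in the Rbpj-/- libraries. Mcm5, a helicase subunit, stood at 8.11 and 10.9 CPM in the healthy, 65.7 and 50.6 CPM in the control and 26.8 and 47 CPM in the Rbpj-/- libraries. Tyms, the thymidylate synthase, stood at 14.8 and 16.6 CPM in the healthy, 47.5 and 49.1 CPM in the control and 28.9 and 65.9 CPM in the Rbpj-/- libraries. Pcna, the polymerase clamp, moved least, at 82.9 and 102 CPM in the healthy, 156 and 144 CPM in the control and 115 and 108 CPM in the Rbpj-/- libraries, and was called in control tumours (0.79 ± 0.2, adjusted p = 0.0323) and not in Rbpj-/- tumours (0.47 ± 0.2, adjusted p = 0.168). The S phase members of smallest p in either comparison were Hells, a chromatin remodeller, Uhrf1, which keeps DNA methylation through replication, Rrm2, Mcm2, Mcm4 and Mcm5. In the order healthy, control and Rbpj-/- libraries, with the log2 differences of control and of Rbpj-/- tumours, Hells differed (3.69 and 6.41, 56.6 and 36.6, and 14.8 and 20.9 CPM) by 3.33 ± 0.38 and 2.05 ± 0.36, Uhrf1 (2.12 and 3.21, 25.4 and 18.5, and 10.8 and 22.6 CPM) by 3.17 ± 0.45 and 2.89 ± 0.45, Mcm4 (4.49 and 6.22, 34.2 and 24.6, and 14 and 18.7 CPM) by 2.57 ± 0.31 and 1.83 ± 0.3 and Mcm2 (6.51 and 7.33, 32.1 and 24.7, and 16.6 and 23.3 CPM) by 2.14 ± 0.28 and 1.74 ± 0.28. In these 4 genes each tumour library lay above both healthy ones. Of the G2/M members of smallest p, in the same order, the kinetochore motor Cenpe differed (3.81 and 4.45, 61.1 and 46.1, and 23.3 and 49.1 CPM) by 3.8 ± 0.42 and 3.35 ± 0.41, the checkpoint kinase Bub1b (2.19 and 2.88, 21.5 and 18.5, and 10.7 and 19.7 CPM) by 3.09 ± 0.38 and 2.81 ± 0.38 and the kinetochore scaffold Knl1 (1.81 and 2.94, 30.6 and 31.5, and 12 and 26.2 CPM) by 3.83 ± 0.46 and 3.25 ± 0.45. The motors Kif11 (1.72 and 3.67, 35.7 and 33.1, and 14.1 and 25.8 CPM) by 3.82 ± 0.46 and 3.16 ± 0.45 and Kif20b (5.76 and 6.02, 29.6 and 28.7, and 15.6 and 25.6 CPM) by 2.4 ± 0.3 and 2.01 ± 0.3 and the kinase Aurkb (2.4 and 3.08, 29.98 and 26.3, and 11.5 and 25.7 CPM) by 3.47 ± 0.44 and 2.99 ± 0.43 differed likewise. The member not called in control tumours was Cenpf, a kinetochore protein (1.51 ± 0.44, adjusted p = 0.0556). Without healthy library 1 the Rbpj-/- count fell to 4 and without healthy library 2 to 18, without control library 1 or 2 it was 19 or 20, and the control count was 21 without healthy library 1 and 18 without control library 1. With a term that groups healthy library 1 with the control tumours and healthy library 2 with the Rbpj-/- tumours, the Rbpj-/- count was 3. All Rbpj-/- libraries lie on the same side of this term and all control libraries on the other. Among the tumours it therefore cannot be told apart from the Rbpj-/- against control comparison. No share over all genes is given for the runs with left-out libraries or with this term, so their counts do not tell the members from all genes.

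Which cells carried the G2/M UMIs depended on how barcodes with markers of more than 1 lineage were treated. With these removed, T-like cells held 67.5% and 68% of the G2/M UMIs of the library in control and 13.3% and 12.1% in Rbpj-/- tumours. With them kept, and the cells clustered anew, the class named T-like held 74.7% and 90.4% in control and 69.5% and 56.9% in Rbpj-/- tumours. It then held most of these UMIs in all 4 tumour libraries. Of this class, 148 and 201 barcodes in control and 734 and 440 in Rbpj-/- libraries lay in 1 cluster. Relative to the highest cluster, the T cell markers of that cluster averaged 0.318 and those of the best other set 0.447. Its median counts were 3.19 times those of the library. The number of T-like cells moved with the treatment of mixed barcodes. It went from 20.5% and 20.5% of the cells in control and 2.33% and 4.93% in Rbpj-/- tumours to 30.7% and 43.4% and to 26.7% and 24%. In Rbpj-/- library 1 the class grew from 54 to 805 barcodes, 526 of them mixed. Whether the mixed barcodes are pairs of cells in 1 droplet was not tested. Microglia-like cells held 4.41% and 13.1% of the G2/M UMIs in control and 25.8% and 42.4% in Rbpj-/- tumours with mixed barcodes removed, and 3.26% and 3.81% against 13.3% and 20.2% with them kept. Monocyte/macrophage-like cells held 7.9% and 3.31% in control and 16% and 29.4% in Rbpj-/- tumours with mixed barcodes removed, and 3.35% and 2.09% against 3.54% and 10.8% with them kept. Either way the tumour groups did not overlap in these 3 classes, which with 2 libraries against 2 cannot give an exact permutation p under 0.33. In Rbpj-/- library 1, 40.1% lay in other and unnamed cells with mixed barcodes removed.

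**Figure D1:**
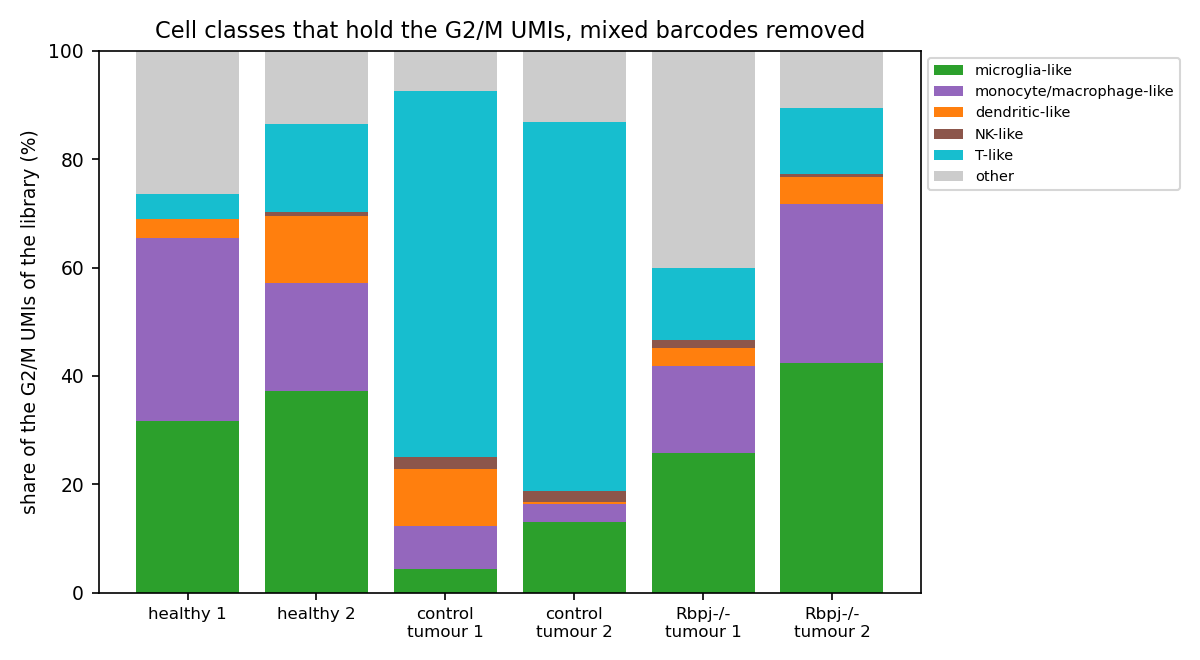
Share (%) of the G2/M UMIs of each library held by each cell class, as stacked bars that reach 100%, with barcodes of more than 1 lineage removed. T-like cells hold 67.5% and 68% in the control tumours and 13.3% and 12.1% in the Rbpj-/- tumours, where microglia-like cells hold 25.8% and 42.4%. With those barcodes kept, the T-like shares are 74.7% and 90.4%, and 69.5% and 56.9%, in a class that then takes in a cluster with a low level of T cell markers.

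Among microglia-like, monocyte/macrophage-like and T-like cells of the tumours, T-like cells had the highest member levels. B-like cells numbered 5 and 3 in the control and 3 and 15 in the Rbpj-/- libraries, too few for a test, and their summed G2/M members stood at 5647 and 144, and 2272 and 7685 CPM, against 4081 and 3788, and 4191 and 5019 CPM in T-like cells. The 6 and 11 T-like cells of the healthy libraries, also too few for a test, stood at 6561 and 4873 CPM. High levels in T-like cells were thus not seen in tumours alone. The score of a class in a library is the mean over members of log2(CPM + 1). The G2/M score of T-like cells was 6.88 ± 0.08 (SD, n = 2) in control and 7.05 ± 0.29 (SD, n = 2) in Rbpj-/- tumours. Microglia-like cells scored 1.63 ± 0.37 in healthy brain, 3.61 ± 0.53 in control and 4.67 ± 1.60 in Rbpj-/- tumours, and monocyte/macrophage-like cells 2.14 ± 0.18, 3.10 ± 0.63 and 4.12 ± 0.53 (SD, n = 2 each). For S phase the scores were 6.55 ± 0.06 and 6.81 ± 0.01 in T-like cells of the tumour groups. They were 2.76 ± 0.19, 3.72 ± 0.24 and 4.44 ± 0.69 in microglia-like cells and 3.31 ± 0.12, 3.79 ± 0.31 and 4.15 ± 0.23 in monocyte/macrophage-like cells, in the order healthy, control and Rbpj-/-.

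**Figure D2:**
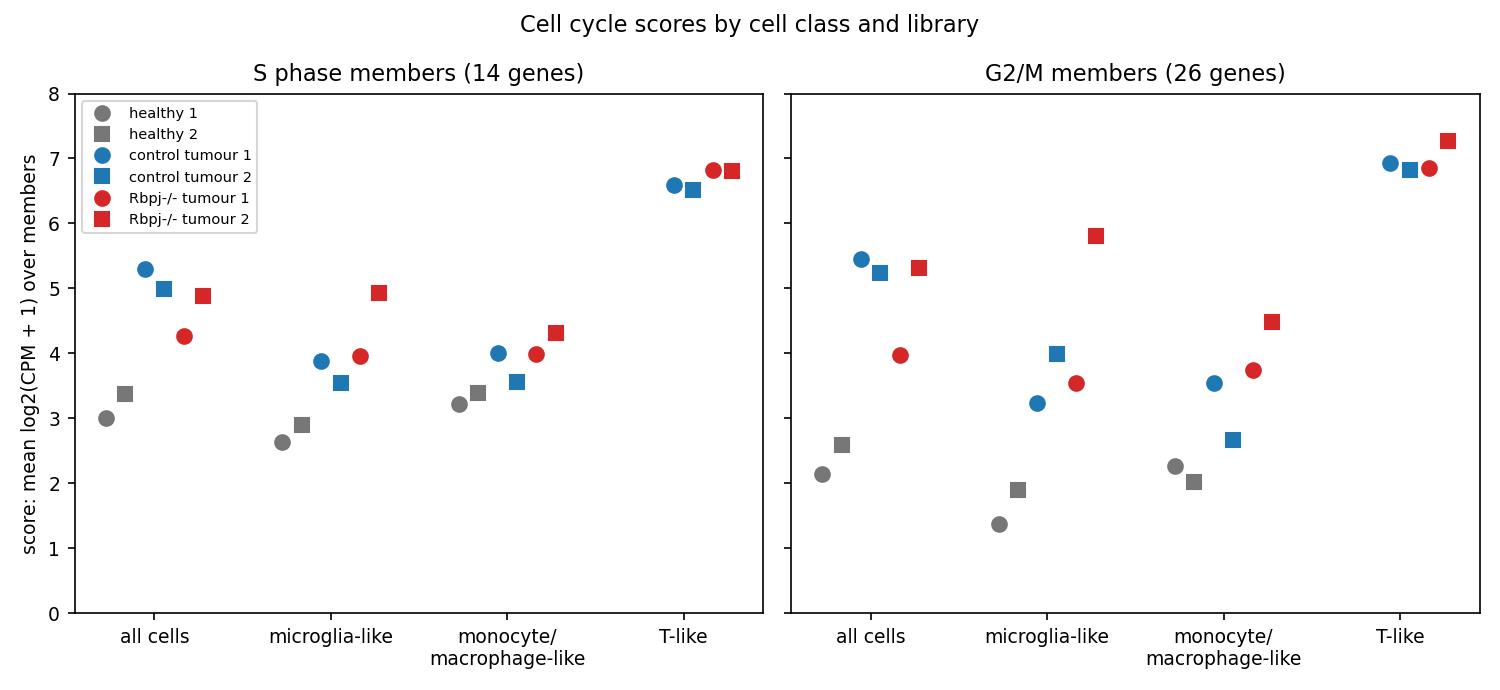
Score (mean log2(CPM + 1) over 14 S phase members, left, and 26 G2/M members, right) of each library (points; circles for library 1, squares for library 2) in all cells and 3 cell classes. T-like cells of the 4 tumour libraries lie highest, and Rbpj-/- library 2 is the highest of the 6 among microglia-like cells.

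Tested on sums per class in the 4 tumour libraries, with the library as a term, all 39 tested members were called higher in T-like than in microglia-like cells (31.1% of all 10044 genes were, and 66.2% changed). All 39 were also higher than in monocyte/macrophage-like cells (26.2% of genes were, and 59.8% changed). The median log2 difference was 2.71 against microglia-like and 3.01 against monocyte/macrophage-like cells. Leaving out any 1 tumour library kept both counts at 39. They were 20 and 22 with mixed barcodes kept, where the T-like class takes in a cluster with a low level of T cell markers. No share over all genes is given for these runs, so their counts do not tell the members from all genes. Mki67 in T-like cells stood at 388 and 346 CPM in the control and 632 and 400.3 CPM in the Rbpj-/- libraries, Top2a at 568 and 592 CPM in the control and 692 and 663 CPM in the Rbpj-/- libraries, and Birc5 at 291 and 342 CPM in the control and 358 and 513 CPM in the Rbpj-/- libraries. Cdk1 stood at 159 and 193 CPM in the control and 164 and 282 CPM in the Rbpj-/- libraries, and Ccnb1 at 110.5 and 66.4 CPM in the control and 87.7 and 126 CPM in the Rbpj-/- libraries. Of the S phase members, Pcna stood at 252 and 296 CPM in the control and 371 and 221 CPM in the Rbpj-/- libraries, Mcm5 at 182 and 166 CPM in the control and 205 and 223 CPM in the Rbpj-/- libraries, Rrm2 at 136 and 207 CPM in the control and 205 and 296 CPM in the Rbpj-/- libraries, and Tyms at 130.3 and 165 CPM in the control and 179.9 and 179.5 CPM in the Rbpj-/- libraries. Of these 9 genes Mki67, Top2a, Birc5, Mcm5 and Tyms were higher in both Rbpj-/- than in both control libraries, and the other 4 overlapped between the tumour groups. Of all 40 members 16 were higher in both, where 18.7% of genes over 1 CPM in a library were. These CPM are scaled by totals alone. On that scale the median log2 difference of all genes was 0.104 in T-like cells, against -0.005 with TMM factors.

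The member of smallest p was Mcm5 (2.85 ± 0.18, adjusted p = 1.15e-08 against microglia-like and 2.83 ± 0.18 against monocyte/macrophage-like cells, edgeR). Of the other S phase members of smallest p, with their levels in T-like cells of the control and the Rbpj-/- libraries and both log2 differences, Hells stood at 171 and 131, and 187 and 134 CPM (3.22 ± 0.22 and 3.64 ± 0.23), Mcm2 at 81.3 and 74.6, and 119 and 118 CPM (2.71 ± 0.19 and 2.64 ± 0.19), Mcm7 at 166 and 137, and 182 and 193 CPM (2.74 ± 0.2 and 2.85 ± 0.21), Mcm4 at 84.6 and 63.5, and 87.7 and 78.9 CPM (2.62 ± 0.2 and 2.4 ± 0.2) and Uhrf1 at 64.1 and 61.3, and 101 and 108 CPM (2.7 ± 0.23 and 2.83 ± 0.24). Of G2/M the first was Cdk1 (2.17 ± 0.23, adjusted p = 2.81e-06 and 2.65 ± 0.24). Kif11 stood at 107 and 114, and 189 and 142 CPM (3.15 ± 0.31 and 3.59 ± 0.33), Ccna2, the cyclin of late S phase and G2, at 82.4 and 68.7, and 106 and 130.2 CPM (3.5 ± 0.37 and 4.05 ± 0.4), Knl1 at 81.7 and 95.2, and 98.9 and 101 CPM (2.4 ± 0.28 and 3.16 ± 0.3) and Bub1 at 41.8 and 39.1, and 60.7 and 53.2 CPM (2.55 ± 0.32 and 3.41 ± 0.36). Bub1b against microglia-like cells (2.71 ± 0.34, at 61.5 and 53.9, and 76.4 and 71 CPM) and Ccnb1 against monocyte/macrophage-like cells (3.28 ± 0.37) complete the list. Between Rbpj-/- and control tumours 0 of 39 members were called in T-like cells (0.126% of 7135 genes were), 1 (Uhrf1) had an unadjusted p under 0.05 and DESeq2 called 0. The median difference was 0.16. The difference in the G2/M score was 0.18, and -0.88 with mixed barcodes kept, and that in the S phase score 0.26 and -0.63. With mixed barcodes removed 16 of 40 members were higher in both Rbpj-/- than in both control libraries (18.7% of genes were). Uhrf1 differed by 0.63 ± 0.25 (adjusted p = 0.689), and the members ranged from -0.52 (Cenpa) to 0.71 (Cdc6). Monocyte/macrophage-like and microglia-like cells of the tumours differed in 0 of 39 members (38.1% of genes differed), with 5 at an unadjusted p under 0.05 and 3 called by DESeq2. For the runs that follow no share over all genes is given, so their counts do not tell the members from all genes. Without Rbpj-/- library 2 edgeR called 4, all higher in monocyte/macrophage-like cells. Without control library 1 it called 1, higher in microglia-like cells.

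**Figure D3:**
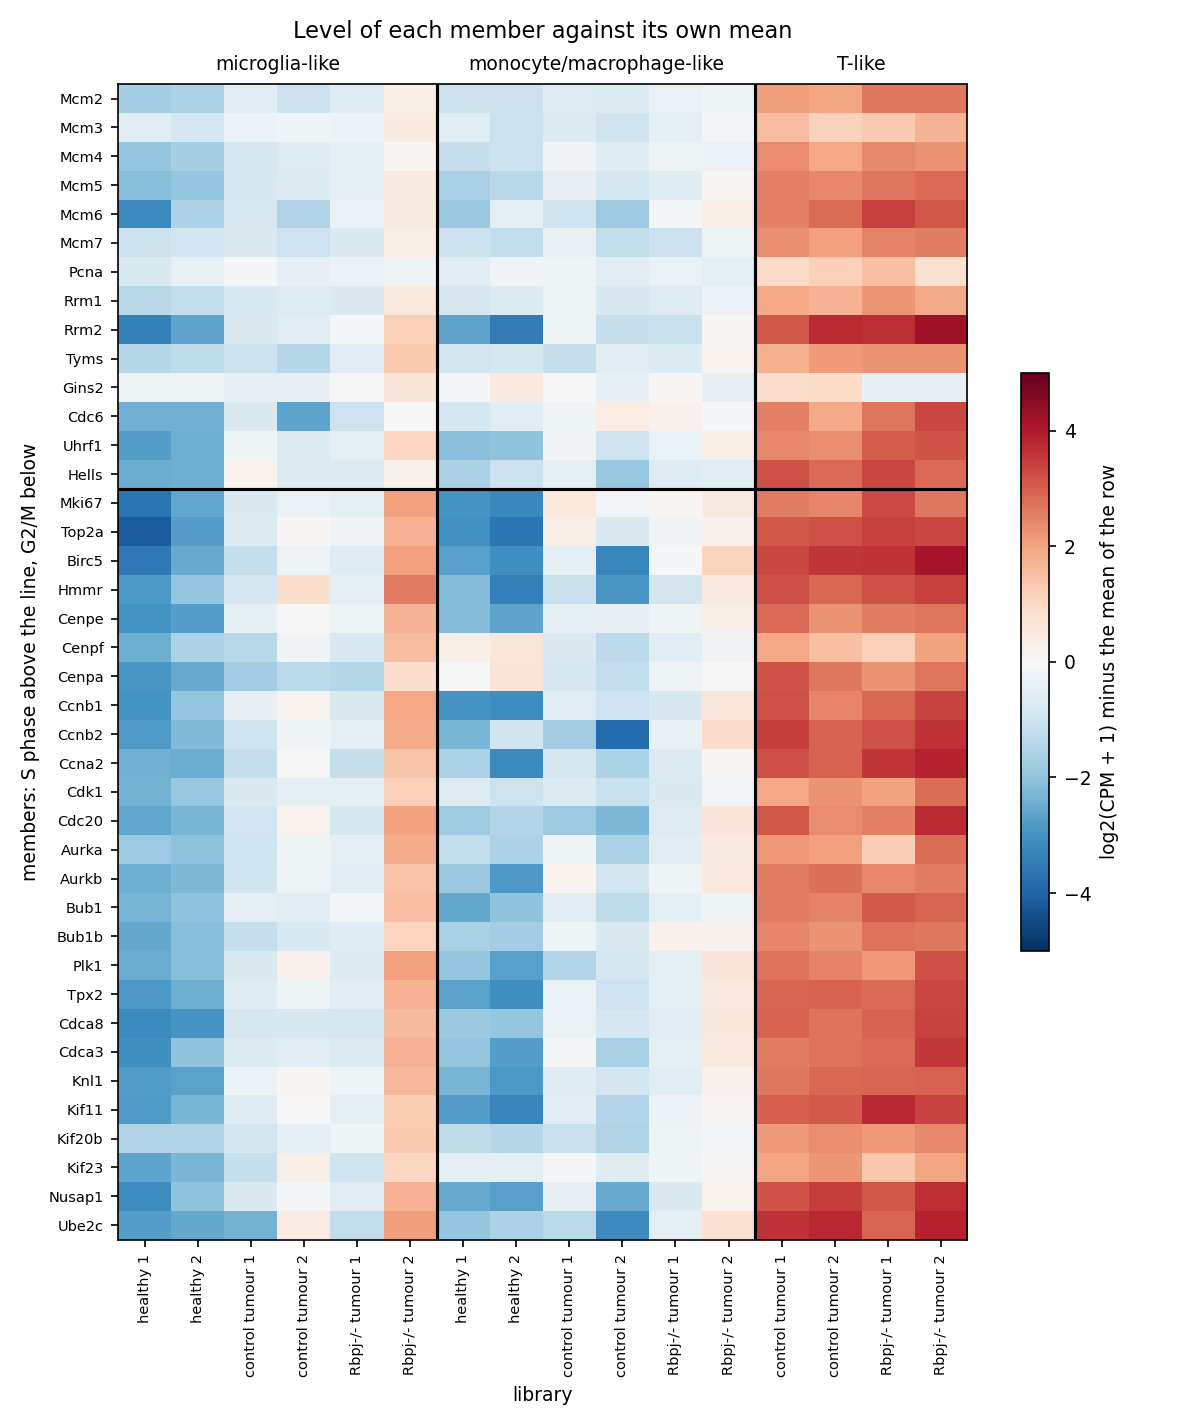
Level of each of the 40 members (rows, S phase above the line) in each class and library (columns), as log2(CPM + 1) minus the mean of its row, on a red (high) to blue (low) scale. The T-like columns are the highest in nearly every row, healthy microglia-like columns are among the lowest, and Rbpj-/- library 2 stands out among microglia-like cells.

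In microglia-like cells the members were higher in the tumours than in healthy brain, and this was called more often for Rbpj-/- than for control tumours. In Rbpj-/- tumours 20 of 39 members rose and 0 fell, where 8.33% of all 11470 genes rose and 12% changed, with a median log2 difference of 4.13. In control tumours 4 of 39 rose and 0 fell, where 2.28% of genes rose, with a median of 2.77. The direct comparison of Rbpj-/- with control tumours called 0 of 39 by edgeR (0.0436% of genes were called), with 7 at an unadjusted p under 0.05 and 1 called by DESeq2. All 40 members were higher in both Rbpj-/- libraries than in both healthy ones (20.7% of 12465 genes over 1 CPM in a library were). In the control libraries 35 of 40 were (19.8% of genes), the others being Mcm7, Pcna, Tyms, Gins2 and Cdc6. Both Rbpj-/- libraries lay above both control libraries for 10 of 40 (18.1% of genes). The summed G2/M members stood at 53.8 and 94.9 CPM in the healthy, 288 and 482 CPM in the control and 366 and 1837 CPM in the Rbpj-/- libraries. Rbpj-/- library 2 was the highest by far, and Rbpj-/- library 1 lay between the control libraries. The summed S phase members stood at 196 and 222 CPM in the healthy, 347 and 295 CPM in the control and 342 and 626 CPM in the Rbpj-/- libraries.

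The helicase subunit Mcm5 stood at 6.25 and 7.22 CPM in the healthy, 17.1 and 19 CPM in the control and 22.4 and 41.9 CPM in the Rbpj-/- libraries, a rise of 2.38 ± 0.29 (adjusted p = 0.00065) in Rbpj-/- and 1.52 ± 0.32 (adjusted p = 0.0303) in control tumours on the log2 scale by edgeR. Its partners Mcm2 (4.98 and 5.4, 12 and 8.3, and 11.6 and 23.1 CPM in the same order) and Mcm4 (3.31 and 4.3, 8.54 and 9.76, and 10.8 and 16.9 CPM) rose in Rbpj-/- tumours by 1.86 ± 0.35 and 2.0 ± 0.34. Mcm3 also rose there, and Mcm6 (2.63 ± 0.73, adjusted p = 0.0933) and Mcm7 (1.06 ± 0.31, adjusted p = 0.0521) did not pass. Of the deoxynucleotide enzymes, Rrm2 stood at 0.534 and 1.55 CPM in the healthy, 8.54 and 9.76 CPM in the control and 14.2 and 35.2 CPM in the Rbpj-/- libraries and rose by 4.84 ± 0.59 (adjusted p = 0.00239) in Rbpj-/- and 3.38 ± 0.64 (adjusted p = 0.0351) in control tumours. Its healthy libraries held 16 and 17 UMIs in all. Rrm1, the other subunit, rose by 1.51 ± 0.36 in Rbpj-/- tumours. Tyms stood at 13.2 and 14.5 CPM in the healthy, 17.1 and 13.2 CPM in the control and 25.3 and 92.6 CPM in the Rbpj-/- libraries and did not pass (2.2 ± 0.6, adjusted p = 0.0849), with Rbpj-/- library 2 far above the rest.

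The chromatin genes Uhrf1 and Hells rose in both comparisons. Uhrf1 stood at 0.869 and 1.28 CPM in the healthy, 9.7 and 6.83 CPM in the control and 7.97 and 24.3 CPM in the Rbpj-/- libraries and rose by 4.05 ± 0.55 (adjusted p = 0.00213) in Rbpj-/- and 3.08 ± 0.59 (adjusted p = 0.0253) in control tumours. Hells stood at 2.37 and 2.47 CPM in the healthy, 20.2 and 10.7 CPM in the control and 10.7 and 21 CPM in the Rbpj-/- libraries and rose by 2.82 ± 0.4 (adjusted p = 0.00178) and 2.77 ± 0.42 (adjusted p = 0.00518). For both genes all 4 tumour libraries lay above the healthy ones. Cdc6, which loads the helicase on DNA, was at 0 in control library 2 and rose in Rbpj-/- tumours (4.36 ± 0.96, adjusted p = 0.0162). Gins2 was at 0 in both control libraries. Pcna stood at 79 and 99.3 CPM in the healthy, 126 and 98.6 CPM in the control and 106 and 111 CPM in the Rbpj-/- libraries and did not pass in either comparison (0.44 ± 0.2, adjusted p = 0.176 and 0.43 ± 0.2, adjusted p = 0.354).

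Of the G2/M members 11 rose in Rbpj-/- tumours and 0 passed in control tumours. Mki67 stood at 4.11 and 9.6 CPM in the healthy, 37.2 and 50.3 CPM in the control and 44.5 and 261 CPM in the Rbpj-/- libraries, with 4.65 ± 1.15 (adjusted p = 0.0998) in Rbpj-/- and 2.82 ± 1.13 (adjusted p = 0.395) in control tumours. Top2a stood at 2.61 and 8.69 CPM in the healthy, 39.97 and 67.8 CPM in the control and 56.7 and 219 CPM in the Rbpj-/- libraries, Birc5 at 1.44 and 4.02 CPM in the healthy, 11.6 and 23.4 CPM in the control and 17.9 and 119 CPM in the Rbpj-/- libraries, and Ccnb1 at 0.534 and 2.1 CPM in the healthy, 8.15 and 12.7 CPM in the control and 6.46 and 46.4 CPM in the Rbpj-/- libraries. Like Mki67 these 3 did not pass (adjusted p = 0.0823, 0.115 and 0.113 in Rbpj-/- tumours by edgeR), and in each the Rbpj-/- libraries lay far apart. Cdk1 stood at 6.95 and 10.2 CPM in the healthy, 24.1 and 29.3 CPM in the control and 29.4 and 94.6 CPM in the Rbpj-/- libraries and rose in Rbpj-/- tumours by 2.99 ± 0.57 (adjusted p = 0.0309). The mitotic checkpoint kinases Bub1 (0.468 and 0.823, 4.27 and 3.9, and 5.65 and 19.4 CPM) and Bub1b (0.969 and 1.65, 4.27 and 5.86, and 6.76 and 23.5 CPM) rose by 4.44 ± 0.62 and 3.68 ± 0.6. The kinetochore scaffold Knl1 (0.902 and 1.1, 9.7 and 13.2, and 10.4 and 40.2 CPM) rose by 4.77 ± 0.67. The spindle motors Kif11 (0.935 and 1.83, 7.76 and 13.2, and 8.88 and 32.6 CPM) and Kif20b (4.98 and 4.94, 8.15 and 11.2, and 13.7 and 41.2 CPM) rose by 4.08 ± 0.7 and 2.57 ± 0.47, and the chromosomal passenger kinase Aurkb (1.5 and 1.83, 5.82 and 10.2, and 8.17 and 35.2 CPM) by 3.81 ± 0.71. The other members called were Aurka, Cenpe, Kif23 and Tpx2.

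These counts moved with single libraries. No share over all genes is given for the runs that follow, so their counts do not tell the members from all genes. Without Rbpj-/- library 1 edgeR called 35 members in Rbpj-/- tumours, 22 in control tumours and 20 in the direct comparison of the tumour groups, all higher in the Rbpj-/- tumours. Without Rbpj-/- library 2 it called 27, 24 and 0. Without healthy library 1, and likewise without healthy library 2, the Rbpj-/- count was 9, and without control library 1 it was 12. The control count was 0 without control library 1, 1 without control library 2 and 1 without healthy library 1. Naming clusters under a looser rule, chosen after seeing the data, added clusters led by Csf1 and Egr3 and by Ace and Treml4 to the class, and the counts became 31 and 13. The first of these clusters held 0 healthy, 52 control and 286 Rbpj-/- cells, and the other 146, 14 and 33. Markers of other cells moved with the class. The 10 T cell markers summed to 7.28 and 5.40 CPM in the healthy, 16.7 and 30.8 CPM in the control and 30.9 and 50.3 CPM in the Rbpj-/- libraries, against 8652 to 11990 CPM in T-like cells of the tumours. The 12 monocyte/macrophage markers summed to 65.6 and 81.8, 145 and 151, and 191 and 707 CPM in the same order, against 4249 to 13400 CPM in monocyte/macrophage-like cells. Their part in the member levels was not tested.

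**Figure D4:**
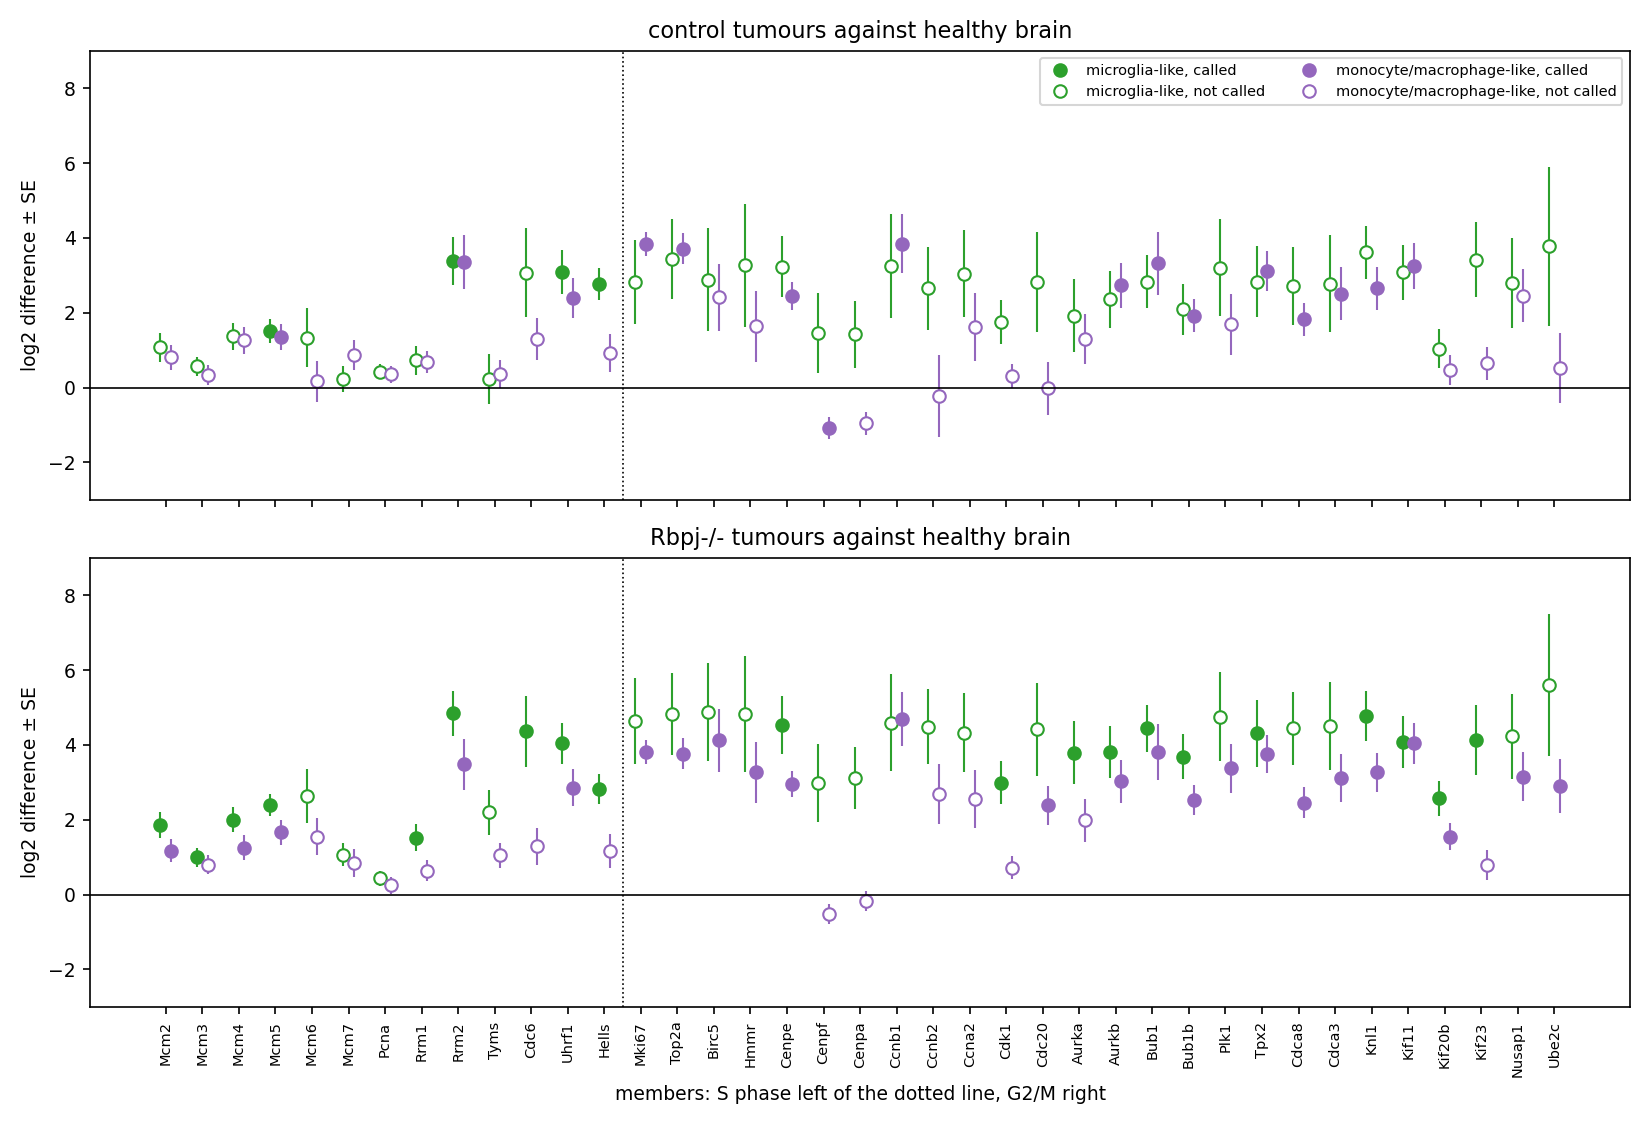
Log2 difference ± SE of each of the 39 tested members against healthy brain (control tumours above, Rbpj-/- tumours below) in microglia-like and monocyte/macrophage-like cells, with called genes as filled points. In microglia-like cells all points lie above 0, and in monocyte/macrophage-like cells Cenpf and Cenpa lie below 0 in both panels.

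In monocyte/macrophage-like cells 15 of 39 members rose and 1 fell in control tumours, where 8.38% of all 10685 genes rose, 4.27% fell and 12.6% changed, with a median log2 difference of 1.35. In Rbpj-/- tumours 24 rose and 0 fell, where 7.12% of genes rose and 10.8% changed, with a median of 2.52. Rbpj-/- against control tumours gave 0 calls by edgeR (0.0187% of genes), with 7 at an unadjusted p under 0.05 and 0 by DESeq2. Both libraries lay above both healthy ones for 19 of 40 members in control (16.7% of genes) and 34 of 40 in Rbpj-/- tumours (17.1% of genes), and both Rbpj-/- above both control libraries for 18 of 40 (20.5% of genes). The cells of this class are not the same in the groups. In healthy libraries 1 and 2, 48.6% and 74.9% lay in a cluster led by Lyve1, Ccn1 and Pf4, and 40.7% and 4.95% in another led by the same genes. Lyve1 and Pf4 are markers of border macrophages. Relative to the highest cluster, the monocyte/macrophage markers of the second of these clusters averaged 0.382 and those of the best other set 0.690. Its median counts were 2.09 times those of the library. The rule for mixed barcodes treats microglia and macrophages as 1 lineage, so barcodes with markers of both stay in. A cluster led by Ly6i, with Plac8, genes of recruited monocytes, held 66.8% and 47.5% of the control and 39.3% and 77.5% of the Rbpj-/- libraries, and a cluster led by Ccl8 and Gbp2b held 17.9% and 42.4% and 53.5% and 18.3%. Libraries of 1 group thus differ in their clusters as well. Microglia-like cells did too: the largest cluster of healthy library 1, led by Slc2a5, held 48.3% of it and 0.302% of healthy library 2, where a cluster led by Hspb1 and Gpr34 held 87.4%. A cluster led by Spp1, Apoc1 and the member Mki67 held 14.2% and 38.6% of the control and 30.1% and 83.9% of the Rbpj-/- libraries, and a cluster led by Egr3 and Tnf held 36.9% and 39.2% and 62.1% and 7.01%. The part of these clusters in the member levels was not tested. The 10 microglia markers in monocyte/macrophage-like cells summed to 13400 and 5287 CPM in the healthy, 1076 and 3732 CPM in the control and 2691 and 3969 CPM in the Rbpj-/- libraries. The 10 T cell markers summed to 49.2 and 50.5, 142 and 53.5, and 90.5 and 89.98 CPM in the same order. In cells of the class with G2/M RNA they summed to 421 CPM in control library 1, 68.9 CPM in control library 2, 83 CPM in Rbpj-/- library 1 and 236 CPM in Rbpj-/- library 2, against 109.9, 52.6, 90.2 and 54.4 CPM in the other cells. The part of these markers in the result was not tested.

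Mki67 stood at 7.29 and 5.79 CPM in the healthy, 91.1 and 57.6 CPM in the control and 67.2 and 86.5 CPM in the Rbpj-/- libraries, the member of smallest p, with 3.84 ± 0.32 (adjusted p = 0.000134) in control and 3.8 ± 0.32 (adjusted p = 0.000149) in Rbpj-/- tumours by edgeR. Top2a stood at 6.93 and 4.13 CPM in the healthy, 78.8 and 38.4 CPM in the control and 56.9 and 74.4 CPM in the Rbpj-/- libraries (3.71 ± 0.42 and 3.76 ± 0.41). In both genes all tumour libraries lay above both healthy libraries by several times. Cenpe stood at 4.42 and 2.9, 16.2 and 17.2, and 20.2 and 28.7 CPM (2.44 ± 0.38 and 2.95 ± 0.35), the spindle assembly factor Tpx2 at 1.91 and 1.24, 13.9 and 8.08, and 12.7 and 25.1 CPM (3.11 ± 0.54 and 3.76 ± 0.51), and Kif11 at 1.08 and 0.413, 8.28 and 4.04, and 10.3 and 14 CPM (3.24 ± 0.61 and 4.04 ± 0.56). Ccnb1 stood at 0.598 and 0.413 CPM in the healthy, 7.29 and 5.05 CPM in the control and 6.04 and 17.9 CPM in the Rbpj-/- libraries, with 3.85 ± 0.79 (adjusted p = 0.0146) and 4.69 ± 0.71 (adjusted p = 0.00376). The healthy libraries held 5 and 1 UMIs of it. Birc5 stood at 3.47 and 2.48 CPM in the healthy, 19.9 and 2.02 CPM in the control and 26.9 and 62.1 CPM in the Rbpj-/- libraries and was called in Rbpj-/- tumours alone (4.12 ± 0.83, adjusted p = 0.0345 there, 2.41 ± 0.89, adjusted p = 0.136 in control tumours). Cdk1 stood at 25.7 and 19.4 CPM in the healthy, 24.9 and 18.2 CPM in the control and 24.3 and 36.6 CPM in the Rbpj-/- libraries and did not pass in either (0.31 ± 0.33, adjusted p = 0.561 and 0.72 ± 0.3, adjusted p = 0.16).

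Of the S phase members Rrm2, Uhrf1 and Mcm5 rose in both comparisons. Rrm2 stood at 1.55 and 0.413 CPM in the healthy, 12.3 and 6.06 CPM in the control and 6.23 and 15.8 CPM in the Rbpj-/- libraries (3.35 ± 0.72 and 3.48 ± 0.67), Uhrf1 at 1.91 and 2.07, 9.94 and 5.05, and 8.96 and 14.3 CPM (2.38 ± 0.53 and 2.86 ± 0.49), and Mcm5 at 9.32 and 11.2 CPM in the healthy, 22.9 and 16.2 CPM in the control and 20.1 and 32 CPM in the Rbpj-/- libraries (1.35 ± 0.36 and 1.67 ± 0.33). Mcm2 (8.13 and 8.27, 11.3 and 11.1, and 14.4 and 15.6 CPM) and Mcm4 (6.33 and 7.03, 13.9 and 10.1, and 13.1 and 12.7 CPM) passed in Rbpj-/- tumours, by 1.17 ± 0.31 and 1.25 ± 0.34, and not in control tumours (adjusted p = 0.145 and 0.0504 by edgeR). Tyms stood at 19 and 19.4 CPM in the healthy, 15.9 and 24.2 CPM in the control and 22.8 and 41.6 CPM in the Rbpj-/- libraries and Pcna at 88.9 and 114 CPM in the healthy, 113 and 87.9 CPM in the control and 104 and 92.9 CPM in the Rbpj-/- libraries, and neither passed. Ccna2 was at 0 in healthy library 2, Gins2, Ccnb2 and Ube2c in control library 2, and Gins2 in Rbpj-/- library 2. The control count was 3 without control library 1 and 9 without healthy library 1. The Rbpj-/- count was 8 without Rbpj-/- library 2 and 15 without healthy library 1. With mixed barcodes kept the counts were 7 and 14. With cell cycle genes left in the clustering, where a cluster of 327 cells led by Mki67 and Top2a and a cluster of 791 cells led by Ccl8 stay unnamed and so leave the classes, they were 5 and 8. No share over all genes is given for any of these runs, so their counts do not tell the members from all genes.

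In this class 4 G2/M members had a log2 difference under 0 in control tumours against healthy brain (Cenpf, Cenpa, Ccnb2 and Cdc20), and 2 in Rbpj-/- tumours (Cenpf and Cenpa). These signs hold on edgeR's TMM scale and can differ from those of the printed CPM, which are scaled by totals alone. Ccnb2 and Cdc20 did not pass (-0.23 ± 1.09, adjusted p = 0.909 and -0.02 ± 0.7, adjusted p = 0.989). Cenpf stood at 62.4 and 79 CPM in the healthy, 30.1 and 20.2 CPM in the control and 34.1 and 45 CPM in the Rbpj-/- libraries and fell in control tumours by 1.07 ± 0.29 on the log2 scale (adjusted p = 0.0394 by edgeR). Cenpa, the histone variant that marks the centromere, stood at 45.3 and 71.5 CPM in the healthy, 26.2 and 19.2 CPM in the control and 38 and 45.5 CPM in the Rbpj-/- libraries and did not pass (-0.95 ± 0.31, adjusted p = 0.0703). In healthy microglia-like cells Cenpf stood at 8.65 and 16.4 CPM and Cenpa at 5.18 and 7.13 CPM, so both were higher in healthy monocyte/macrophage-like than in healthy microglia-like cells in each library. Together the pair made 108 and 150.5 of the 205 and 228 CPM of all G2/M members in healthy monocyte/macrophage-like cells. Among healthy cells of the class with at least 2 G2/M members, 30 of 33 and 12 of 14 had Cenpa or Cenpf. No member was called as lower without healthy library 2, without control library 1 or without control library 2.

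Counted per cell, G2/M RNA was rare in healthy microglia-like cells and common in T-like cells. Each cell was thinned to 2000 UMIs, and the share of cells with at least 2 different G2/M members is given with its exact (Clopper-Pearson) 95% interval, which covers counting error only. In microglia-like cells it was 0.305% (0.167 to 0.511%) and 0.622% (0.298 to 1.14%) in the healthy libraries. It was 3.65% (1.59 to 7.07%) and 7.45% (3.91 to 12.7%) in the control libraries and 5.01% (3.72 to 6.59%) and 17.1% (14 to 20.5%) in the Rbpj-/- libraries. All 4 tumour libraries lay above both healthy ones, Rbpj-/- library 2 was the highest, and Rbpj-/- library 1 lay between the control libraries. In T-like cells the share was 37% (29.97 to 44.4%) and 32.7% (23.7 to 42.7%) in control and 30.8% (18.7 to 45.1%) and 36.9% (26.6 to 48.1%) in Rbpj-/- tumours, with overlapping groups. In monocyte/macrophage-like cells it was 3.94% (2.73 to 5.49%) and 5.18% (2.86 to 8.55%) in the healthy, 6.04% (3.06 to 10.6%) and 5.36% (1.12 to 14.9%) in the control and 8.44% (6.1 to 11.3%) and 10.6% (8.54 to 13%) in the Rbpj-/- libraries. Without Cenpa and Cenpf, a choice made after seeing the data, these became 0.597% and 1.11%, 4.95% and 5.36%, and 5.91% and 10.4%. Cells under 2000 UMIs were left out: 70 and 47 healthy, 6 and 10 control and 79 and 35 Rbpj-/- microglia-like cells, 66 and 13, 14 and 3, and 25 and 22 monocyte/macrophage-like cells, and 4 and 1 control and 2 and 3 Rbpj-/- T-like cells.

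**Figure D5:**
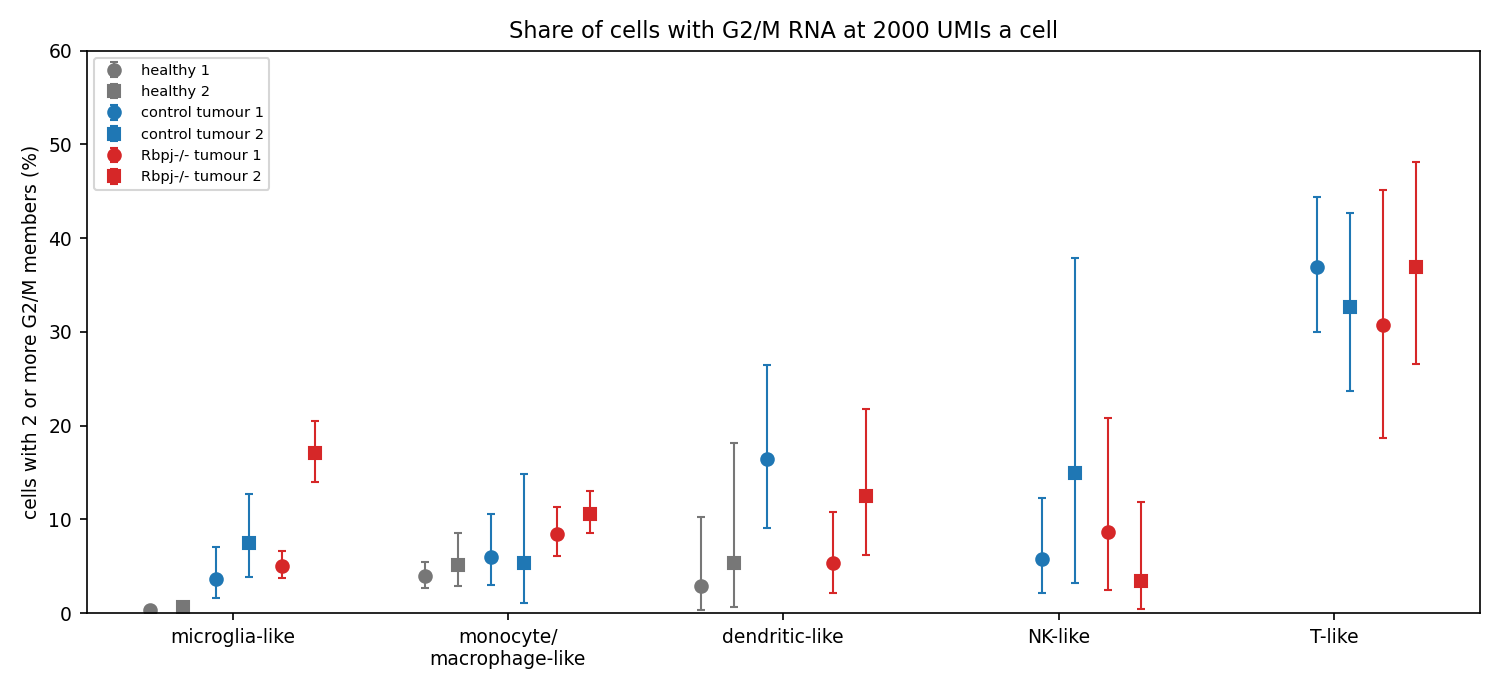
Share (%) of cells with at least 2 G2/M members after thinning to 2000 UMIs, for 5 classes and each library with at least 20 cells (points), with exact 95% binomial intervals. T-like cells lie between 30.8% and 37%, and healthy microglia-like cells at 0.305% and 0.622%.

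The share of microglia-like cells with at least 2 S phase members was 4.46% (3.89 to 5.1%) and 4.29% (3.35 to 5.4%) in the healthy, 6.85% (3.88 to 11.1%) and 13% (8.26 to 19.2%) in the control and 9.81% (8 to 11.9%) and 17.3% (14.2 to 20.7%) in the Rbpj-/- libraries. Unthinned, the microglia-like G2/M shares were 2.25% and 3.08% in the healthy, 10.2% and 12.3% in the control and 17.1% and 26.8% in the Rbpj-/- libraries, at median counts of 5254 and 6324, 9568 and 10020, and 7418 and 5934 per cell. The monocyte/macrophage-like shares were 29.1% and 29.7%, 35.7% and 45.8%, and 36.3% and 29%, at medians of 7166 and 7803, 14130 and 14910, and 8744 and 7788. T-like cells reached 62.2% and 72.5% in control and 50% and 44.8% in Rbpj-/- tumours, at medians of 8817 and 10340, and 4970 and 3669. Neutrophil-like cells, which do not divide, had 0 of 30 cells above the threshold over all libraries, at a median of 3342 counts, which allows a share of up to 10%. Many cells lay near the threshold. Of 186 microglia-like cells with at least 2 members 52 had exactly 2, and 594 more had exactly 1. For T-like cells 34 of 152 had exactly 2 and 96 more had 1. Cells with G2/M RNA were deeper before thinning, with a median of 10400 counts against 5872 in other microglia-like cells and 17460 against 5889 in T-like cells.

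Cells with G2/M RNA also carried S phase RNA more often. At least 2 S phase members were found in 47.9% of microglia-like cells with G2/M RNA and 5.19% of the rest, and in 73.7% against 21.8% of T-like cells. These are cells of shared libraries, described without a test. In monocyte/macrophage-like cells with G2/M RNA the S phase share was 10.6% in healthy brain (5 of 47 cells), 57.1% in control (8 of 14) and 36.6% in Rbpj-/- tumours (45 of 123). Within microglia-like cells of the tumours, the share of cells with G2/M RNA in the cluster led by Spp1, Apoc1 and Mki67 was 6.25% and 6.35% in the control and 4.79% and 18% in the Rbpj-/- libraries. In the cluster led by Egr3 and Tnf it was 7.41% and 10.9% and 5.57% and 20.5%. Rbpj-/- library 2 had the highest share in both clusters, with 83 of 461 and 8 of 39 cells. Among T-like cells the CD8 cluster (Cd8a, Cd8b1, Gzmb) had G2/M RNA in 45.6% and 34.4% of cells in the control and 32.3% and 47.9% in the Rbpj-/- libraries, and the cluster led by Il13 and Tnfrsf4 in 22.9% and 0% (0 of 5 cells in control library 2) and 28.6% and 22.2%.

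NK-like and dendritic-like cells gave no calls. In NK-like cells 16 of 40 members could be tested between the tumour groups and 0 were called by edgeR (0.523% of 3631 genes were), 0 had an unadjusted p under 0.05 and DESeq2 called 0. In the control and the Rbpj-/- libraries Mki67 stood at 92.5 and 60.6, and 94.8 and 50.3, Top2a at 135 and 55.5, and 223 and 33.5, Cdk1 at 13.6 and 20.2, and 71.1 and 4.19, Birc5 at 27.3 and 75.7, and 66.3 and 46.1 and Ccnb1 at 0 and 50.5, and 4.74 and 4.19 CPM. Of the S phase genes Mcm5 stood at 60.6 and 45.4, and 66.3 and 113, Rrm2 at 42.4 and 0, and 42.6 and 4.19, Tyms at 37.9 and 50.5, and 52.1 and 46.1 and Pcna at 206 and 222, and 123 and 176 CPM. The share of NK-like cells with G2/M RNA was 5.83% (2.17 to 12.2%) and 15% (3.21 to 37.9%) in control and 8.7% (2.42 to 20.8%) and 3.45% (0.42 to 11.9%) in Rbpj-/- tumours. In dendritic-like cells 30 of 40 members could be tested between Rbpj-/- tumours and healthy brain, and 0 were called by edgeR (4.57% of 7440 genes were). The genes Mcm4, Tyms and Mcm6 had an unadjusted p under 0.05, and DESeq2 called 0. In the healthy libraries, control library 1 and the Rbpj-/- libraries, the 5 with at least 20 of these cells, Mki67 stood at 30.2 and 118, 99.3, and 48 and 92.6, Top2a at 18.8 and 110.2, 161, and 42.1 and 134, Cdk1 at 6.26 and 27.5, 48.6, and 18.1 and 71.2, Birc5 at 8.35 and 39.3, 98.6, and 13.3 and 126 and Ccnb1 at 2.09 and 7.87, 34, and 1.07 and 24.9 CPM. Of the S phase genes Mcm5 stood at 20.9 and 25.6, 50.7, and 26.1 and 63.3, Rrm2 at 12.5 and 11.8, 17.4, and 10.1 and 32.8, Tyms at 20.9 and 13.8, 34.7, and 25.6 and 80.2 and Pcna at 109.5 and 96.4, 129, and 107 and 112 CPM. Their share with G2/M RNA was 2.94% (0.358 to 10.2%) and 5.41% (0.661 to 18.2%) in the healthy, 16.5% (9.06 to 26.5%) in control library 1 and 5.38% (2.19 to 10.8%) and 12.5% (6.16 to 21.8%) in the Rbpj-/- libraries. For the runs that follow no share over all genes is given, so their counts do not tell the members from all genes. The dendritic-like count was 8 without Rbpj-/- library 1, 5 without healthy library 2, and 1 without healthy library 1 or Rbpj-/- library 2.

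Whether the change against healthy brain differed between monocyte/macrophage-like and microglia-like cells was tested as an interaction. For control tumours 0 of 39 members were called by edgeR (1.25% of 11679 genes were), with 8 at an unadjusted p under 0.05 and 2 called by DESeq2. For Rbpj-/- tumours 0 were called (0.993% of genes), with 17 at an unadjusted p under 0.05 and 3 by DESeq2. Here all 39 differences were negative, with a median of -1.18. This means a smaller rise in monocyte/macrophage-like cells or, for Cenpf and Cenpa, a log2 difference under 0 there. The smallest adjusted p belonged to Cdk1 (-2.19 ± 0.43, adjusted p = 0.0764) and Mcm6 (-1.2 ± 0.27, adjusted p = 0.0812) for Rbpj-/- tumours, and to Mcm6 (-1.41 ± 0.35, adjusted p = 0.0792) and Hells (-1.92 ± 0.49, adjusted p = 0.0855) for control tumours. For Rbpj-/- against control tumours 0 were called (0.00856% of genes), with 2 at an unadjusted p under 0.05 and 0 by DESeq2. For the run that follows no share over all genes is given, so its counts do not tell the members from all genes. Without Rbpj-/- library 1 the Rbpj-/- interaction gave 7 calls and the control interaction 2, all lower in monocyte/macrophage-like cells.

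Genes of the cycle outside the member list were counted from lists drawn up by function. They are read against all genes tested, of which 12.4% and 6.87% rose over all cells, 2.28% and 8.33% in microglia-like cells and 8.38% and 7.12% in monocyte/macrophage-like cells, in control and Rbpj-/- tumours. Of 32 tested genes of replication outside the member list, 28 rose in control and 21 in Rbpj-/- tumours over all cells, and 0 fell. In microglia-like cells 5 of 31 rose in control tumours, and 23 rose and 1 fell in Rbpj-/- tumours. The fall was of Cdca7. The examples of smallest p in microglia-like cells of Rbpj-/- tumours were the repair gene Brca1 (3.73 ± 0.49), the replication licensing inhibitor Gmnn (2.45 ± 0.33), Atad2 (1.65 ± 0.22) and the dUTPase Dut (2.75 ± 0.38). Among monocyte/macrophage-like cells 3 of 28 rose in control and 10 in Rbpj-/- tumours, with Rfc2, a clamp loader subunit (1.06 ± 0.22), Clspn (2.62 ± 0.56), Brip1 (2.6 ± 0.57) and Gmnn (1.66 ± 0.36) of smallest p in the latter. The 3 in control tumours are a share near that of all genes. Of 50 other mitosis genes, 43 and 38 rose over all cells. In microglia-like cells 2 of 49 (Kif4 and Hmgb2) rose in control and 24 in Rbpj-/- tumours, and in monocyte/macrophage-like cells 14 and 18 of 42, with 0 falls in each case. The 2 in control microglia-like cells are again near the share of all genes. The median log2 difference in control and Rbpj-/- tumours was 1.29 and 2.06 for the replication list and 1.93 and 3.4 for the mitosis list in microglia-like cells. In monocyte/macrophage-like cells it was 0.71 and 1.09 and 1.64 and 2.06. Over all genes tested the medians of these comparisons lay between -0.0392 and -0.0237. The kinesins Kif2c (3.92 ± 0.5) and Kif4 (4.25 ± 0.59), the cohesin regulator Cdca5 (4.0 ± 0.63) and the checkpoint kinase Ttk (4.51 ± 0.74) were those of smallest p in microglia-like cells of Rbpj-/- tumours. In monocyte/macrophage-like cells they were Kif2c (3.66 ± 0.51), Melk (4.31 ± 0.67), Spc24 (4.15 ± 0.64) and Ckap2l (2.91 ± 0.5).

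Among genes of the G1 to S switch some cyclins and E2F factors passed, and most genes of the list did not. In microglia-like cells 5 of 21 rose and 1 fell in Rbpj-/- tumours, where 8.33% of all genes rose and 12% changed, and 2 (E2f1 and Ccne2) rose in control tumours, where 2.28% rose. The median log2 difference of the list was 0.48 in Rbpj-/- and 0.29 in control tumours. E2f1, an activator of S phase genes, stood at 3.34 and 2.47 CPM in the healthy, 12.8 and 13.2 CPM in the control and 17.1 and 32.4 CPM in the Rbpj-/- libraries and rose by 2.21 ± 0.37 in control and 3.17 ± 0.35 in Rbpj-/- tumours. Cyclin E genes Ccne1 (3.91 ± 0.61) and Ccne2, with 4 and 1 UMIs in the healthy libraries, and the D cyclin Ccnd2 (3.46 ± 0.53) rose in Rbpj-/- tumours with the repressor E2f8 (3.64 ± 0.63), and Cdk6 fell. In control tumours Ccne1 did not pass there (2.67 ± 0.69, adjusted p = 0.077). Of 19 such genes tested in monocyte/macrophage-like cells, 5 rose in control and 4 in Rbpj-/- tumours, and 0 fell. Ccnd2 stood at 5.74 and 5.79 CPM in the healthy, 52.4 and 49.5 CPM in the control and 51.2 and 58.2 CPM in the Rbpj-/- libraries there, with 3.5 ± 0.26 (adjusted p = 8.04e-05) and 3.54 ± 0.26 (adjusted p = 8.4e-05) by edgeR, and E2f8 and Ccne1 rose by 4.6 ± 0.66 and 3.96 ± 0.75 in Rbpj-/- tumours, against 2 and 1 and against 4 and 1 UMIs in the healthy libraries. In the tumours Ccnd1 was lower in T-like than in microglia-like (-4.7 ± 0.33) and monocyte/macrophage-like cells (-5.09 ± 0.33), while Ccnd2 was higher in T-like than in microglia-like cells (4.52 ± 0.35).

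Cell cycle inhibitors and p53 arrest genes moved in both directions. In microglia-like cells of Rbpj-/- tumours 5 of 17 rose and 3 fell, where 8.33% of all genes rose and 12% changed, with a list median of 0.03. Cdkn2a, which encodes p16 and ARF, stood at 1.57 and 2.1 CPM in the healthy, 2.33 and 3.42 CPM in the control and 8.98 and 22.5 CPM in the Rbpj-/- libraries and rose by 3.23 ± 0.46 (adjusted p = 0.0019). Gadd45b (3.35 ± 0.48), Cdkn1a, which encodes p21, Cdkn2c and Cdkn2d also rose, while Sesn1 (-1.4 ± 0.21), Cdkn1c (-1.41 ± 0.26) and Ccng2 fell. In control tumours 0 rose and Sesn1 fell (-1.15 ± 0.21, adjusted p = 0.0172). In monocyte/macrophage-like cells Gadd45b (3.8 ± 0.43 and 3.42 ± 0.42), Cdkn1a (2.5 ± 0.42 and 2.31 ± 0.41) and Gadd45a (1.97 ± 0.35 and 1.54 ± 0.33) rose in control and Rbpj-/- tumours, and Trp53inp1 fell in both. Between Rbpj-/- and control tumours 0 genes of these 4 lists were called by edgeR in all cells, microglia-like, monocyte/macrophage-like or T-like cells, where 24, 17, 7 and 6 of them had an unadjusted p under 0.05.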

How the data were processed

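The 6 libraries hold CD45+ cells of brain or glioma (10x 3′ v3). The authors deposited raw UMI counts per gene and barcode, made with kallisto 0.46.0 and bustools 0.39.3 on mm10, per the submitters' processing notes. The 40 members and the other gene lists were chosen with earlier results of these data known.

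Barcodes under 500 genes or over 10% mitochondrial counts were removed (17), as were 256 likely copies of a barcode in another library. No doublet caller was run: 2872 barcodes with markers of more than 1 lineage were removed by a rule set after seeing the data. Cells were clustered with scanpy 1.11.5 (30 components, 20 neighbours, resolution 1.0) on 2000 variable genes without cell cycle genes, and named from markers. Counts were summed per class and library and tested with edgeR 4.0.16 (TMM, quasi-likelihood, Benjamini-Hochberg over all genes tested), taking classes of at least 20 cells in each library of a comparison. Healthy brain had 17 T-like cells, so T-like cells were not compared with it. Shares used cells thinned to 2000 UMIs. DESeq2 1.42.0, other filters, scalings, clusterings and left-out libraries were alternatives.

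On simulated data edgeR recovered 24.5%, 14.4% and 12.5% of genes changed by a log2 of 1 and 81.4%, 82.5% and 76.3% of those changed by 2, for microglia-like and monocyte/macrophage-like cells of Rbpj-/- tumours against healthy brain and T-like cells of Rbpj-/- against control tumours (11470, 10685 and 7135 genes), and 9.65%, 13% and 5.68% of its calls were wrong. The changed genes were picked at random from all genes tested, and no other gene differed between the groups. These rates need not hold for the members. Values in every library are printed for Mki67, Top2a, Ccnb1, Cdk1, Birc5, Pcna, Mcm5, Rrm2 and Tyms, for up to 6 S phase and 6 G2/M members of smallest p in each comparison with a call, where values in the class comparisons are those of T-like cells. Up to 4 genes of smallest p of each other list are named, mostly by their log2 differences. Cenpa and Cenpf were singled out after their values were seen. The main fits did not pair libraries by replicate number.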

Additional observations from a re-analysis of the deposited data

Results flagged for a closer look

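The change of 2 cell cycle genes outside the member list differed between cell classes by edgeR's interaction test. Of all 11679 genes 1.25% did so for control and 0.993% for Rbpj-/- tumours. Calls this few do not set the lists apart from all genes. Gadd45b, a stress-induced growth arrest gene, rose more in monocyte/macrophage-like than in microglia-like cells of control tumours, by 1.55 ± 0.28 on the log2 scale (adjusted p = 0.0346). E2f1 rose less in monocyte/macrophage-like than in microglia-like cells of Rbpj-/- tumours, with a difference of -2.23 ± 0.34 (adjusted p = 0.0165).

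Cells of clusters without a name, which enter no class comparison, also carried G2/M RNA. Their summed G2/M members averaged 849 CPM over the control libraries (911 and 787 CPM) and 868 CPM over the Rbpj-/- libraries (548 and 1187 CPM), against 71.5 and 121 CPM in the healthy libraries. Each tumour library lay above both healthy libraries. The unnamed cells are not the same clusters in the groups. A cluster at 0.306 times the library's median counts held 56.8% of them in healthy library 1. Another at 0.245 times held 83.9% in healthy library 2. A cluster led by Csf1 and Egr3, at 3.515 times, held 0 healthy cells. It held 32.9% and 20.7% of the unnamed cells in the control and 51% and 34.1% in the Rbpj-/- libraries. The part of these clusters in the difference was not tested.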

How the results depend on the processing

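Here macrophage-like is short for monocyte/macrophage-like, and C and R stand for control and Rbpj-/- tumours against healthy brain. The number called in T-like against the other classes stayed at 39 in every run but the one with mixed barcodes, and no run called a member between the tumour groups in T-like or NK-like cells. Looser naming, the shares without Cenpa and Cenpf and the UMI shares with mixed barcodes kept were chosen after the data were seen. With healthy library 1 grouped with C and healthy library 2 with R as a term, the count was 3 for all cells (R), 10 for microglia-like (R) and 15 for macrophage-like (R). With DESeq2, the count was 1 for all cells (R against C), 16 for microglia-like (C), 38 for microglia-like (R), 1 for microglia-like (R against C), 3 for macrophage-like against microglia-like, 2 for the control interaction and 3 for the Rbpj-/- interaction. With no filter on low counts, the count was 2 for all cells (R against C), 15 for microglia-like (C), 9 for microglia-like (R against C), 5 for macrophage-like (R against C), 3 for dendritic-like (R), 11 for macrophage-like against microglia-like, 7 for the control interaction and 11 for the Rbpj-/- interaction. With looser cluster naming, the count was 13 for microglia-like (C), 31 for microglia-like (R), 3 for macrophage-like against microglia-like, 4 for the control interaction and 4 for the Rbpj-/- interaction. With mixed barcodes kept, the count was 7 for macrophage-like (C), 14 for macrophage-like (R), 20 for T-like against microglia-like, 22 for T-like against macrophage-like and 6 for the Rbpj-/- interaction. With cell cycle genes left in the clustering, the count was 5 for macrophage-like (C), 8 for macrophage-like (R), 1 for dendritic-like (R), 9 for macrophage-like against microglia-like, 2 for the control interaction and 4 for the Rbpj-/- interaction. Scaled by library totals alone, the count was 4 for macrophage-like against microglia-like and 1 for the control interaction. Leaving out 1 library at a time, the number of members called ranged from 18 to 39 for all cells (C), from 4 to 37 for all cells (R), from 0 to 24 for microglia-like (C), from 9 to 35 for microglia-like (R), from 0 to 20 for microglia-like (R against C), from 3 to 17 for macrophage-like (C), from 8 to 25 for macrophage-like (R), from 1 to 8 for dendritic-like (R), from 0 to 4 for macrophage-like against microglia-like, from 0 to 2 for the control interaction and from 0 to 7 for the Rbpj-/- interaction. Where this leaves a group with 1 library, its spread is taken from the other groups. For the counts of these runs, and for counts at an unadjusted p, no share over all genes is given. They therefore do not tell the members from all genes.

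The main fits did not pair libraries by replicate number. Over genes of at least 20 CPM on average, the deviations of same-numbered libraries correlated at -0.428 to 0.095 between groups. That range does not speak for the members alone. In microglia-like cells the G2/M score was higher in library 2 of each group (1.372 and 1.89 healthy, 3.231 and 3.986 control, 3.539 and 5.805 Rbpj-/-). In monocyte/macrophage-like cells this held for Rbpj-/- tumours alone. Whether same-numbered libraries share a batch was not tested. With a replicate block the counts were 22 and 37 for microglia-like cells of control and Rbpj-/- tumours and 2 for dendritic-like cells, and within 1.5 times the unblocked count elsewhere.

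With a pseudocount of 10 CPM, the score difference was 1.25 for S phase in all cells (C), 0.82 for S phase in all cells (R), 0.44 for S phase in microglia-like (C), 0.89 for S phase in microglia-like (R), 0.22 for S phase in macrophage-like (C), 0.45 for S phase in macrophage-like (R), 0.31 for S phase in T-like (R against C), 1.78 for G2/M in all cells (C), 1.28 for G2/M in all cells (R), 0.84 for G2/M in microglia-like (C), 1.6 for G2/M in microglia-like (R), 0.39 for G2/M in macrophage-like (C) and 0.89 for G2/M in macrophage-like (R). As log2 of the summed CPM, the score difference was 1.57 for S phase in all cells (C), 0.62 for S phase in microglia-like (C), 1.15 for S phase in microglia-like (R), 0.197 for S phase in macrophage-like (C), 0.53 for S phase in macrophage-like (R), 0.34 for S phase in T-like (R against C) and 1.36 for G2/M in macrophage-like (R). With mixed barcodes kept, the score difference was 1.61 for S phase in all cells (C), -0.63 for S phase in T-like (R against C), 2.35 for G2/M in all cells (C), 1.28 for G2/M in macrophage-like (R), 0.26 for G2/M in macrophage-like (R against C) and -0.88 for G2/M in T-like (R against C). With cell cycle genes left in the clustering, the score difference was 0.56 for S phase in microglia-like (C), -0.24 for S phase in macrophage-like (C), 0.23 for S phase in macrophage-like (R), 0.31 for S phase in T-like (R against C), 0.33 for G2/M in microglia-like (C), 1.1 for G2/M in microglia-like (R), 0.0201 for G2/M in macrophage-like (C) and 0.46 for G2/M in macrophage-like (R). On TMM effective totals, the score difference was 0.75 for S phase in macrophage-like (C), 1.12 for S phase in macrophage-like (R) and 0.0994 for S phase in T-like (R against C). Thinned to 1000 UMIs, the share was 0.881% for all cells of healthy brain, 10.8% for all cells of control tumours, 2.36% for macrophage-like of healthy brain, 2.63% for macrophage-like of control tumours, 5.33% for macrophage-like of Rbpj-/- tumours, 31.3% for T-like of control tumours and 26.5% for T-like of Rbpj-/- tumours. With at least 3 members asked for, the share was 0.529% for all cells of healthy brain, 10.6% for all cells of control tumours, 0.222% for microglia-like of healthy brain, 1.04% for macrophage-like of healthy brain, 3.43% for macrophage-like of control tumours, 5.02% for macrophage-like of Rbpj-/- tumours, 26.9% for T-like of control tumours and 27% for T-like of Rbpj-/- tumours. With mixed barcodes kept, the share was 2.02% for all cells of healthy brain, 17% for all cells of control tumours, 6.42% for macrophage-like of control tumours, 9.77% for T-like of healthy brain, 31.4% for T-like of control tumours and 28.4% for T-like of Rbpj-/- tumours. Without Cenpa and Cenpf, the share was 0.683% for all cells of healthy brain, 12.1% for all cells of control tumours, 0.854% for macrophage-like of healthy brain, 5.15% for macrophage-like of control tumours and 29.8% for T-like of control tumours. The score in T-like cells of Rbpj-/- against control tumours and the S phase score in monocyte/macrophage-like cells of control tumours changed sign where a negative value is given. With mixed barcodes kept, T-like cells held 82.6% and 63.2% of the G2/M UMIs in control and Rbpj-/- tumours in place of 67.8% and 12.7%, microglia-like cells 16.7% in Rbpj-/- tumours in place of 34.1%, macrophage-like cells 7.19% in place of 22.7%, and T-like cells made up 37.1% and 25.3% of the cells in place of 20.5% and 3.63%. Otherwise the cause was not tested. Without 1 library, the G2/M score difference of Rbpj-/- against control tumours ranged from -0.0279 to 0.387 in T-like and from -0.0692 to 2.2 in microglia-like cells, so that its sign turned. For T-like cells of Rbpj-/- against control tumours the self-test recovered 12.5% of genes changed by a log2 of 1 and 76.3% of those changed by 2, so that most changes of the smaller size would be missed there.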
